A study of Arabidopsis thaliana with 7 samples.

Results

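MYB transcription factor genes were taken as the protein-coding genes of the RefSeq gene table whose symbol starts with MYB, with or without the prefix AT, followed by a digit. The rule found 121 of the 27444 protein-coding genes on the 5 nuclear chromosomes of Arabidopsis thaliana, and it used no measured value. The measurement was chromatin immunoprecipitation followed by sequencing (ChIP-seq) of seedlings, labelled day 12, which locates a protein on DNA. The series holds 7 such samples, namely ZF-DDR4 (n = 2), Col-0 (n = 2), ZF-DDR5 (n = 2) and a further Col-0 (n = 1). Both ZF-DDR5 samples and the further Col-0 are marked g3 in their titles, which the labels do not explain. The values below were read from 1 deposited list, that of ZF-DDR5 replicate 1, which gives 9999 intervals with no score.

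The plants of that list carry the label ZF-DDR5, which names an engineered zinc finger joined to DDR5, a protein with a DDT domain. Col-0 is the wild-type accession. The protocol text given for all samples describes precipitation with an anti-FLAG antibody from lines that express a DDR4 fusion. The promoter that drives the ZF-DDR5 fusion, its line number and its antibody are not given in the labels. No peak list of Col-0 or of ZF-DDR5 replicate 2 was analysed here. The values therefore have no replicate error, and whether the same intervals would be called in plants without the fusion is unknown. The depth is unknown too, since the list holds no counts. A peak list holds no expression, so the labelled tissue could not be checked against marker genes.

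MYB proteins bind DNA through repeats of a helix-turn-helix domain, and in plants most members carry a pair of these repeats. The family is known for its control of specialised metabolism, cell fate, secondary wall formation and stress responses. Members with closely similar domains often control the same pathway. DDT-domain proteins such as DDR4 and DDR5 are known partners of ISWI remodellers, the enzymes that space nucleosomes. The zinc finger of such fusions was designed for the promoter of FWA, a homeodomain gene, so MYB genes are not its designed targets.

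A peak was assigned to a gene by its centre, either inside the gene (the gene body) or within 1000 bp of either edge (the flank). Of the 121 MYB genes, 25 had a peak centre in the body (20.7%, Wilson 95% interval 14.4% to 28.7%), against 26.9% of all protein-coding genes. MYB genes were shorter than the average gene, with a median length of 1792 bp against 2078 bp. For genes of like length, the share of genes with a peak was read in the 1 of 20 equal length bins that holds each MYB gene, and these shares were summed. That sum was 28.8 genes in the body, a ratio of observed to summed share of 0.868 (0.605 to 1.21 from the Wilson interval). The interval covers 1, so the body count of MYB genes was not distinguishable from that of genes of their length at this number of genes. Wilson intervals here cover counting error over genes, which are not replicates of the experiment.

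With the flanks added, 34 of the 121 MYB genes had a peak centre (28.1%, 20.9% to 36.7%), against 36.5% of all protein-coding genes. The like-length sum was 41.4 genes, a ratio of 0.821 (0.610 to 1.07). The remaining 87 MYB genes had no centre in either place. The ratio was 0.985 when a flank peak centred inside another protein-coding gene was not counted, with 31 MYB genes against a sum of 31.5. The counts by place went in different directions. MYB genes were below the like-length sum for the body (25 against 28.8) and for flank peaks that all lie in another gene (3 against 9.95). They were above it for flank peaks outside other protein-coding genes (6 against 2.65). The ratio near 1 thus comes from a lower body count and a higher flank count that offset each other, and none of these differences was tested.

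The space around MYB genes was wider than around most genes. The distances to the adjacent protein-coding genes on both sides, summed, had a median of 5600 bp for MYB genes (quartiles 3394 and 8331 bp) and 1856 bp for all protein-coding genes (702 and 4027 bp). The flanks of 65 of the 121 MYB genes (53.7%) held no other protein-coding gene, against 19.8% of all genes. A total of 2634 protein-coding genes had a centre in the flank and none in the body, and for 78.8% of them every such peak lay in another protein-coding gene. The same was so for 3 of the 9 MYB genes with a flank peak only. The part of this spacing in the flank counts was not tested.

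**Figure D1:**
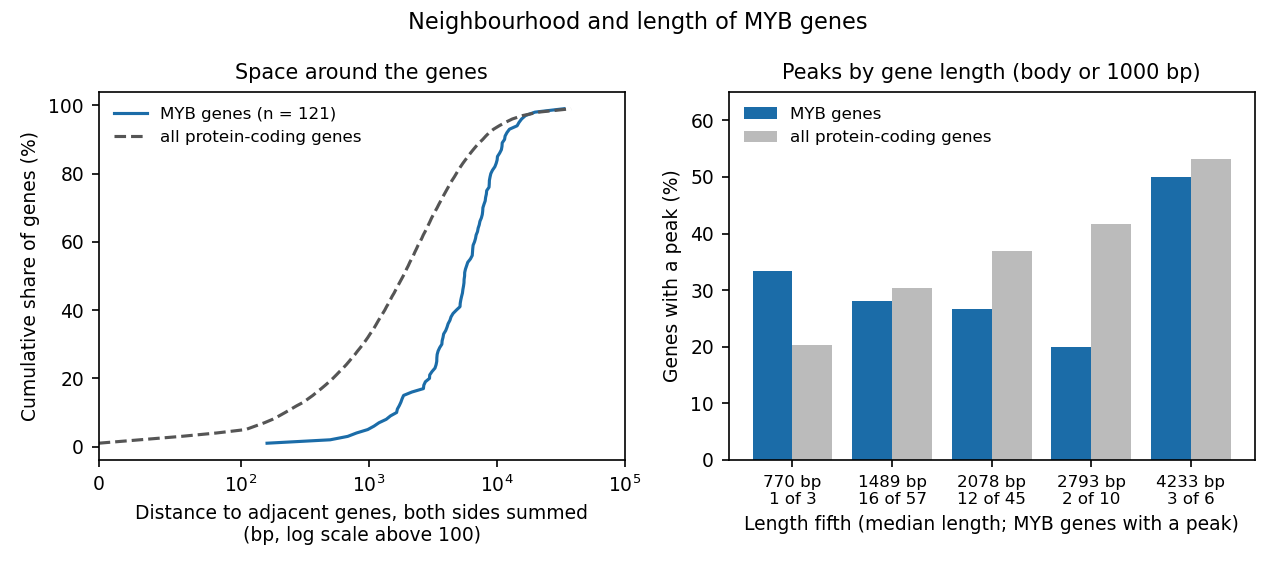
Left, cumulative share of genes (%) by the summed distance to the adjacent protein-coding genes (bp, log scale above 100) for MYB genes (solid) and all protein-coding genes (dashed). Right, share of genes (%) with a peak centre in the body or within 1000 bp, for MYB genes and all genes in 5 equal groups of gene length, with the number of MYB genes with a peak under each pair of bars. The MYB curve lies to the right of the other up to the 97th percentile and to its left above that. MYB genes are below all genes in each length group except the shortest, which holds 3 MYB genes.

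By length, most MYB genes fell into 2 of the 5 length groups of equal size. In the group with a median of 1489 bp, 16 of 57 MYB genes (28.1%) had a centre in the body or flank against 30.4% of all genes there. In the group with a median of 2078 bp, 12 of 45 (26.7%) had one against 36.8%. The next longer group held 10 MYB genes, of which 2 had a centre (20.0% against 41.7%). The longest held 6, of which 3 had one (50.0% against 53.1%).

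The members with a peak were spread over all chromosomes. They numbered 8 of 26 on chromosome 1, 2 of 11 on chromosome 2, 10 of 30 on chromosome 3, 5 of 17 on chromosome 4 and 9 of 37 on chromosome 5. The like-length sums were 8.55, 3.83, 10.8, 5.48 and 12.7, so the observed number was below the sum on each chromosome, by less than 1 gene on 3 of them.

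Beside other families of transcription factors, MYB genes had a ratio near that of WRKY genes. Of 67 WRKY genes, regulators of defence and stress responses, 16 had a centre in the body (23.9%) against a like-length sum of 17.9, and 20 with the flanks (29.9%) against 24.6. Of 25 ERF genes, named for ethylene response, 11 had one in the body (44.0%, 26.7% to 62.9%) against 4.60. With the flanks, 12 had one (48.0%, 30.0% to 66.5%) against 7.22. Both families were taken by symbol, as WRKY or ERF followed by a digit, so related genes under other symbols were not counted. The ratios with the flanks were 0.821 for MYB, 0.812 for WRKY and 1.66 for ERF genes. The differences between families were not tested.

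**Figure D2:**
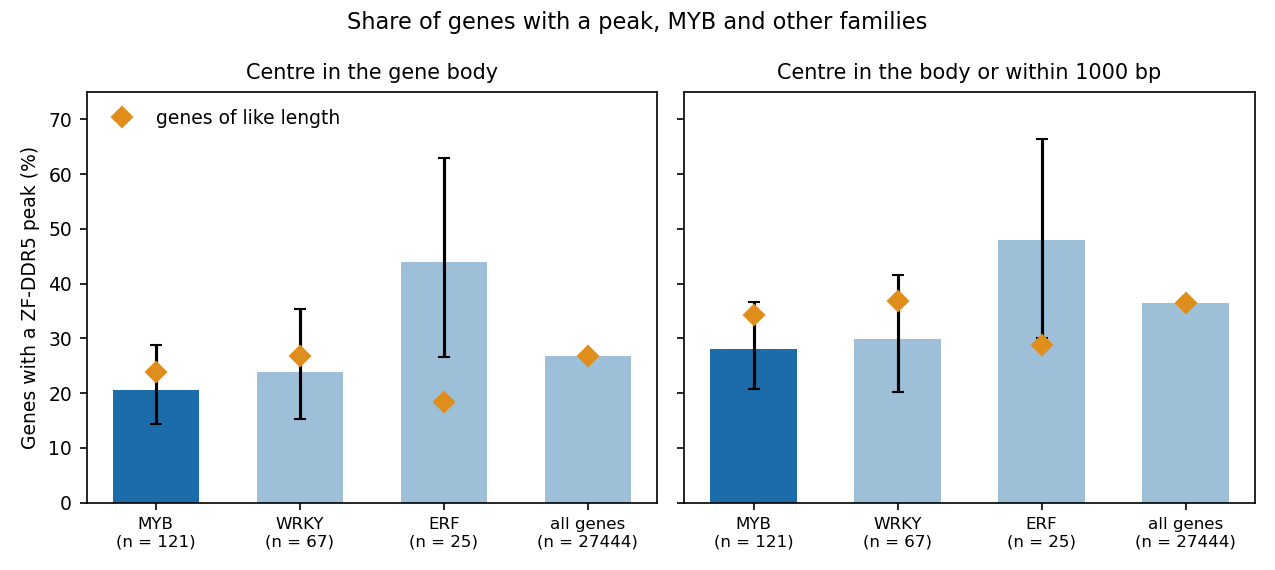
Share of genes (%) with a ZF-DDR5 peak centre in the body (left) and in the body or within 1000 bp (right) for MYB, WRKY, ERF and all protein-coding genes. Bars are observed shares with Wilson 95% intervals and diamonds the shares of genes of like length. The diamond lies within the interval for MYB genes in both panels (20.7% against 23.8%, and 28.1% against 34.2%). It lies within the interval for WRKY genes and below it for ERF genes in both panels.

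The 36 peaks at MYB genes were all different, and none was counted at 2 members. They comprised 27 body peaks in 25 genes and 9 flank peaks. Their widths were like those of the list, with a median of 448 bp for the body peaks (298 to 1118 bp) and 521 bp for the flank peaks (303 to 854 bp), against 484 bp for all peaks. Of the 36, 19 belonged to the wider 50% of the list, 13 were narrower than 400 bp and 5 were wider than 800 bp (13.9%, against 18.3% of all peaks). The list holds no height or enrichment, so width is the only property by which its peaks can be ranked, and a wide peak is not necessarily a strong one.

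Body peaks have their centre in the gene by definition, and in MYB genes they lay about as far in bp from the edges as in all genes. Of the 27 body peaks, 26 lay wholly within the MYB gene, and none was centred also in an overlapping protein-coding gene. The centre was 617 bp from the nearest gene edge at the median (188 to 1752 bp), and 18 of 27 centres were over 500 bp from it. For the body peaks of all protein-coding genes the median was 623 bp. Among genes of 664 to 2679 bp, the range from the shortest MYB gene to the 90th percentile, the median was 538 bp for 23 MYB peaks (quartiles 320 and 682 bp) and 477 bp for 3860 peaks of all genes (322 and 679 bp). The quartiles overlap almost fully, so no difference in this distance can be read. As a share of gene length, the centre of the 27 MYB body peaks lay 34.1% from the nearest edge at the median (quartiles 23.3% and 42.1%). The median was 26.2% for all body peaks (15.2% and 38.0%). It was 28.3% for those in genes of 664 to 2679 bp (18.5% and 39.8%). These differences were not tested. Within that length range a peak covered 25.5% of the MYB gene at the median, against 27.6%. Strand is not in the gene table, so positions could not be set against the transcription start. Gene coordinates are not printed, because the table is of assembly TAIR10.1 and the peaks are of TAIR10.

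**Figure D3:**
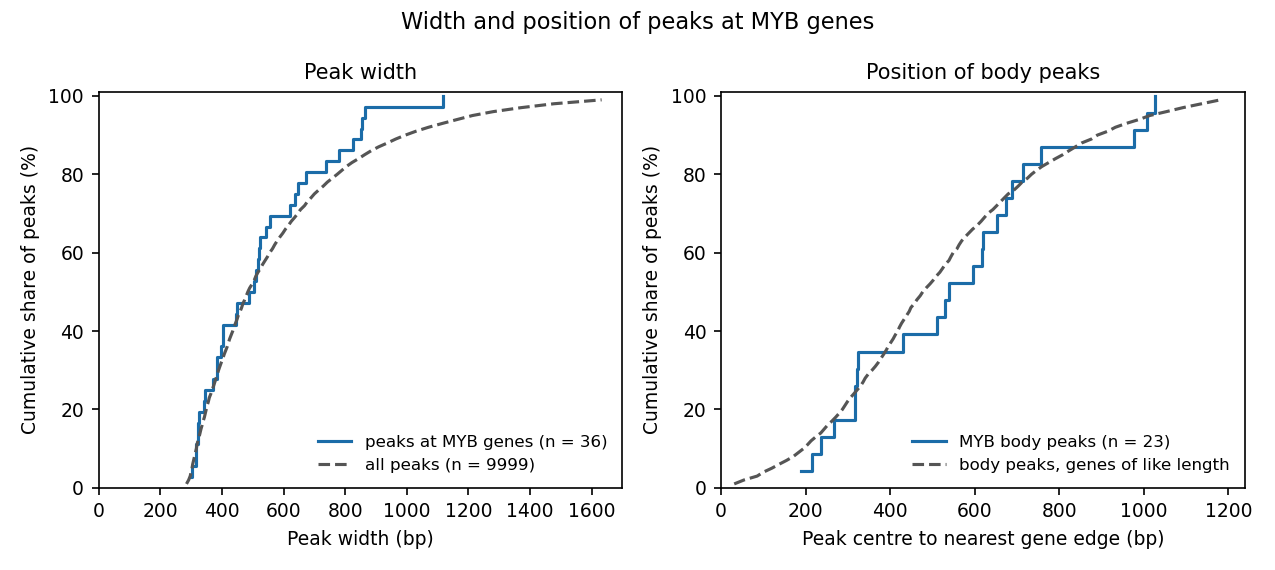
Left, cumulative share (%) of the 36 peaks at MYB genes (solid) and of all 9999 peaks (dashed) by width (bp). Right, cumulative share (%) of body peaks by the distance from the centre to the nearest gene edge (bp), for the 23 MYB peaks in genes of 664 to 2679 bp (solid) and all body peaks in genes of that length (dashed). The curves of width run together up to about the median, and no MYB peak is wider than 1118 bp.

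**Figure D4:**
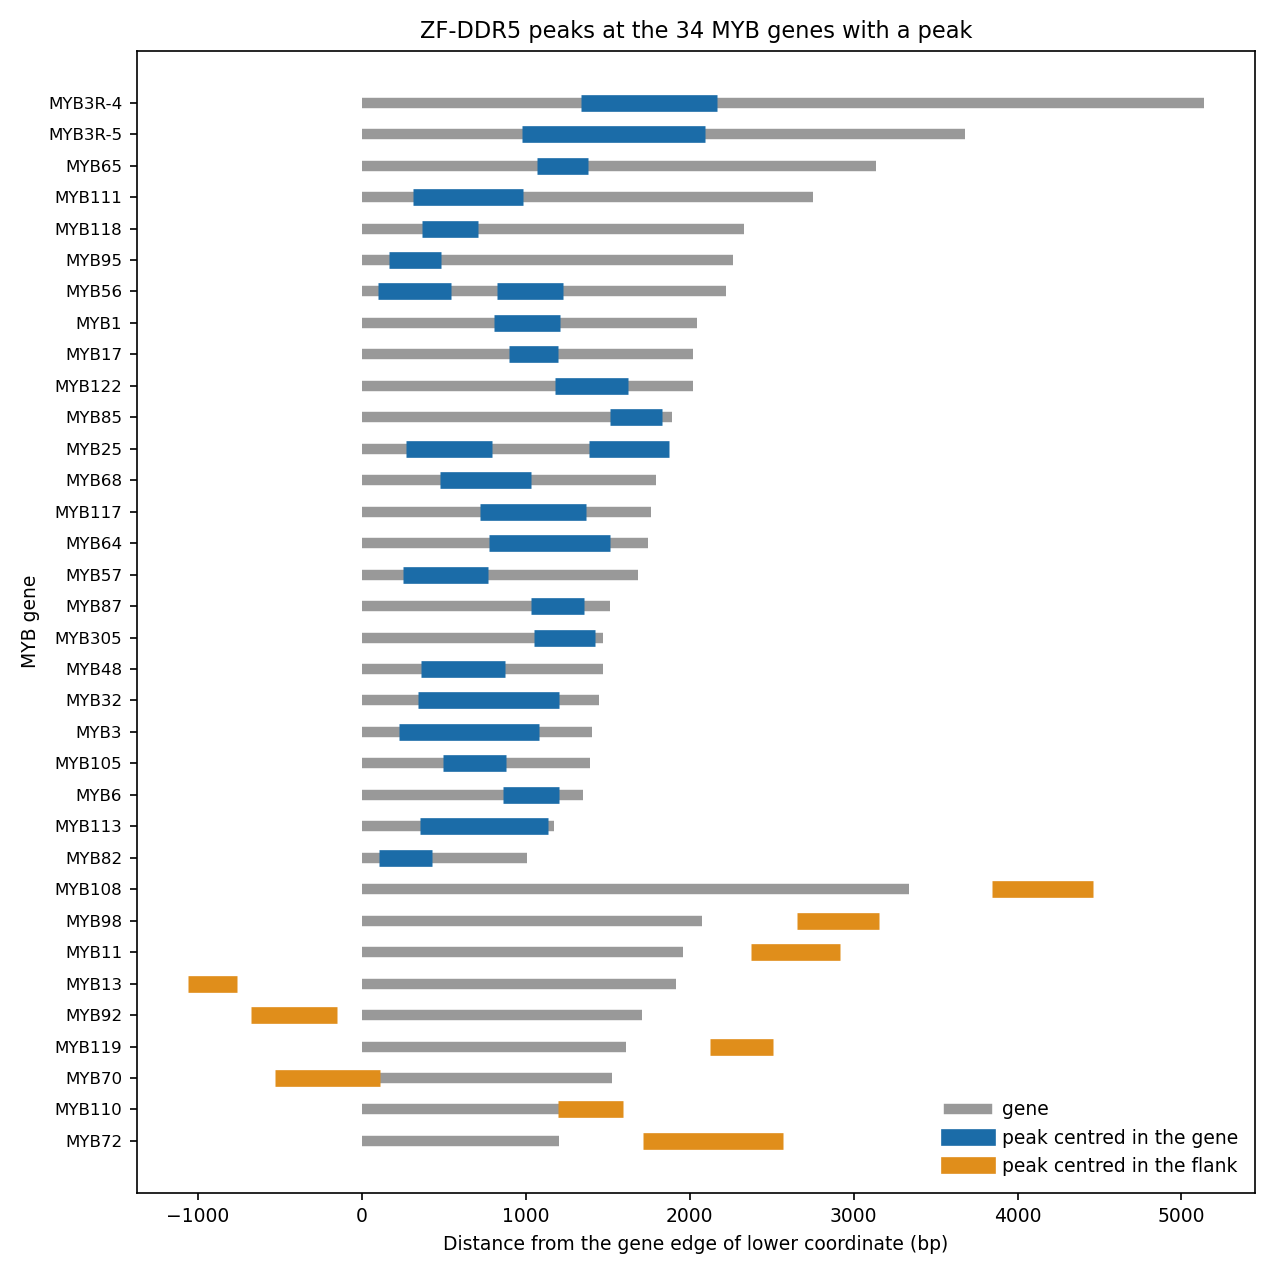
The 34 MYB genes with a peak, each drawn to scale as a grey bar from the edge of lower coordinate (bp), with body peaks in blue and flank peaks in orange. Genes are ordered by length within the body and flank sets. Body peaks sit inside the gene, MYB25 and MYB56 carry 2 each, and 7 of the 9 flank peaks do not touch the gene.

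The cell cycle genes, MYB3R, held the widest MYB peak. MYB3R proteins carry an additional repeat and control genes of the division phase of the cell cycle. The peak in MYB3R-5 (AT5G02320), which is known with MYB3R-3 as a repressor of those genes, measured 1118 bp and ranked 696 among the 9999 peaks (chromosome 5, 483772 to 484889, TAIR10). It covered 30.4% of the gene. MYB3R-4 (AT5G11510), known as an activator, carried a peak of 825 bp, 1752 bp from the nearest edge (chromosome 5, 3681088 to 3681912). MYB3R-3 had no centre within 1000 bp, the nearest being 1582 bp from its edge, and MYB3R2 had none nearer than 8530 bp. Thus 2 of the 4 genes had a peak, both in the body, against a like-length sum of 1.54 in the body and 1.89 with the flanks. PC-MYB1, which is MYB3R1 under another symbol and was not chosen by the rule, had a flank peak of 425 bp centred in the neighbouring gene La1.

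Of the 10 genes of the flavonoid and phenylpropanoid lists chosen by the rule, 5 had a peak, against a like-length sum of 3.36. The Wilson interval of that share runs from 23.7% to 76.3% and contains the like-length share of 33.6%. The next widest body peaks of the family were in a pair of these genes. MYB32 (AT4G34990), a repressor of phenylpropanoid genes, had a peak of 863 bp that covered 59.6% of the gene (chromosome 4, 16661444 to 16662306). MYB3 (AT1G22640), also a repressor of this pathway, had one of 851 bp that covered 60.7% (chromosome 1, 8006291 to 8007141). Both were centred near the middle of the gene, at 53.4% and 46.5% of its length from the edge of lower coordinate. Their relatives MYB4, a repressor of sinapate ester synthesis, and MYB7 had none, with the nearest centres 6931 and 5701 bp away.

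Among the activators of flavonol synthesis, MYB111 (AT5G49330) carried a body peak of 674 bp (chromosome 5, 19999135 to 19999808). MYB11 had a peak of 542 bp, 688 bp beyond its edge, centred in a non-coding RNA gene (chromosome 3, 23157003 to 23157544). MYB12, the third of the group and the longest at 3272 bp, had no centre nearer than 1908 bp. The 3 genes thus held a body peak, a flank peak and no peak.

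Of the activators of anthocyanin synthesis, MYB113 (AT1G66370) had a peak of 781 bp that covered 66.6% of the gene, the highest share among MYB genes (chromosome 1, 24753941 to 24754721). Its neighbours MYB114, 2536 bp away, and MYB90 had none. MYB113, MYB114 and MYB90 are close copies of each other, and how reads shared between copies were placed is not given in the labels, so the assignment to MYB113 alone is uncertain. PAP1 (MYB75), the best known anthocyanin activator, and TT2 (MYB123), which controls the tannins of the seed coat, are listed in the table under those symbols, were not chosen by the rule, and had no peak.

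Of the 6 glucosinolate regulators, 1 had a peak, against a like-length sum of 2.13. Glucosinolates are sulphur-rich defence compounds of the cabbage order. MYB122 (AT1G74080), a regulator of the indolic branch, held a body peak of 448 bp (chromosome 1, 27856756 to 27857203). The other indolic regulators, MYB34 and MYB51, had none, and the nearest centres lay 3214 and 17221 bp away. The regulators of the aliphatic branch, MYB28, MYB29 and MYB76, had none within 1000 bp, at 3133, 7354 and 4131 bp from the nearest centre. The Wilson interval of 3.01% to 56.4% around 1 of 6 leaves no room to tell this group from genes of its length.

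The secondary wall regulators had a peak in 1 of 14 genes, in the body, against a like-length sum of 3.215 in the body and 4.70 with the flanks. The Wilson interval of that share is 1.27% to 31.5%. The like-length share is 23.0% in the body, inside that interval, and 33.6% with the flanks, above it. The share with the flanks includes peaks centred in neighbouring genes, and it was not recomputed without them for this group. Over all MYB genes, the ratio was 0.821 with those peaks and 0.985 without them. The 1 gene was MYB85 (AT4G22680), an activator of lignin genes, with a narrow peak of 316 bp centred 216 bp from an edge (chromosome 4, 11923857 to 11924172). The master switches MYB46 and MYB83 had none, with the nearest centres 13652 and 2072 bp away. None was counted at the lignin activators MYB58 and MYB63, at MYB20, MYB42 and MYB43, which act with MYB85 on phenylalanine and lignin synthesis, at MYB52, MYB54, MYB61 and MYB69, at AtMYB103, known for its part in lignin composition, or at MYB26, which controls wall thickening in the anther. Among these 13, the nearest centre lay between 1830 bp (MYB26) and 15683 bp (MYB43) from the gene. The group was 1 of 16 described and no test was made, so the low count is a description of this list.

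None of the 19 stress and abscisic acid genes had a peak centre in the body, against a like-length sum of 4.32, and 4 had one in the flank. The Wilson interval of a body count of 0 of 19 runs up to 16.8%, for counting error only, and the like-length share was 22.7%. This group too was 1 of 16 described, with no test. With flanks, 4 of 19 (21.1%, 8.51% to 43.3%) stood against a sum of 6.31. The widest was at MYB72 (AT1G56160), a regulator of iron uptake and of root responses to beneficial microbes. Its peak of 854 bp was centred 941 bp from the gene, inside the overlapping genes NF-YC2 and AT1G56180 (chromosome 1, 21024102 to 21024955). MYB70 had a peak of 636 bp centred 210 bp outside an edge, which overlapped the gene by 109 bp (chromosome 2, 9903979 to 9904614). MYB108 (BOS1), known for resistance to Botrytis, had one of 621 bp at 818 bp, and MYB13 one of 303 bp at 911 bp, neither in another gene.

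The other 15 stress genes had no centre within 1000 bp. They were MYB2, an activator of drought-responsive genes, MYB15, known in cold and immunity, MYB14, MYB30, a regulator of the hypersensitive response, MYB41, MYB60, expressed in guard cells, MYB62, MYB73, MYB74, MYB77, MYB94 and MYB96, which control cuticular wax, MYB102, MYB112 and MYB116. The nearest centres to this set lay between 1403 bp (MYB102) and 22591 bp (MYB14). MYB96 was also just outside the limit, at 1511 bp. MYBR1 (MYB44), listed under that symbol and not chosen by the rule, had no peak.

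**Figure D5:**
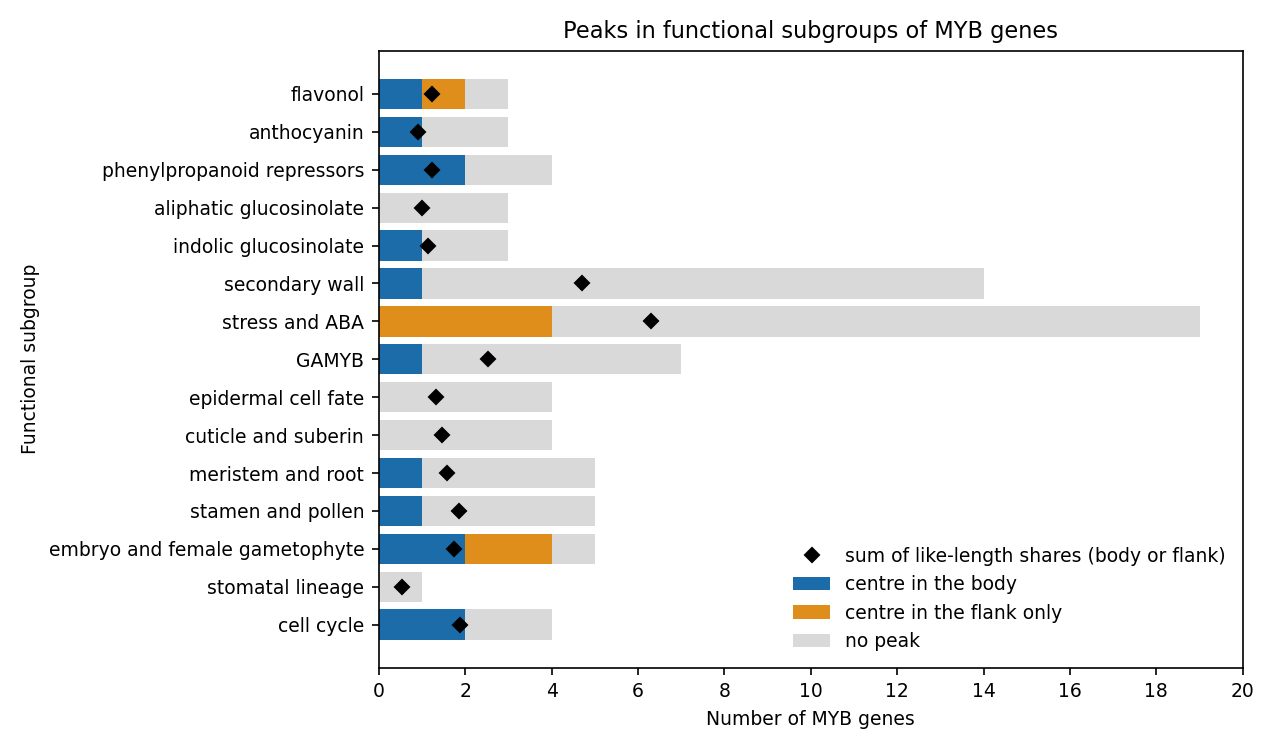
Number of MYB genes in each functional subgroup with a peak centre in the body (blue), in the flank only (orange) or with no peak (grey). Diamonds give the sum of like-length shares for the body or flank. Secondary wall genes reach 1 against 4.70, stress genes 4 against 6.31 with none in the body, and embryo and female gametophyte genes 4 against 1.73.

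Regulators of the embryo and female gametophyte had a peak in 4 of 5 genes, against a like-length sum of 1.73, and 2 of the 4 were in the body against 1.21. The interval of that share was 37.6% to 96.4%, against a like-length share of 34.6%. This group of 5 genes was also 1 of 16 described, with no test. MYB64 (AT5G11050), which acts with MYB119 in the cellularisation of the embryo sac, had a body peak of 738 bp (chromosome 5, 3502869 to 3503606). MYB118, known in endosperm maturation, had one of 343 bp (chromosome 3, 10288970 to 10289312). The flank peaks of MYB98, a regulator of the synergid cells, and of MYB119 were centred in neighbouring genes. The MYB98 peak of 503 bp lay in IRX1, a cellulose synthase gene of secondary walls, and the MYB119 peak of 384 bp lay in CYP86A1, a gene of suberin synthesis. Without those peaks of neighbours, the count is the 2 body peaks, whose ratio to the like-length sum for the body alone is 1.65 (0.484 to 3.17). A sum that also counts flank peaks outside other genes was not computed for this group. MYB115, the relative of MYB118, had none nearer than 12112 bp.

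Of the remaining subgroups, each had a peak in at most 1 gene chosen by the rule. Among the GAMYB genes, which act in gibberellin signalling in anther and seed and are targets of a microRNA, MYB65 had a body peak of 315 bp, and MYB33, MYB81, MYB97, MYB101, MYB104 and MYB120 had none (1 of 7 against 2.52). Among stamen and pollen genes, MYB57 had a body peak of 517 bp (chromosome 3, 210372 to 210888). MYB21 and MYB24, which act with MYB57 in stamen growth under jasmonate, had none, nor had MYB80 and MYB99 of the tapetum (1 of 5 against 1.85). Among meristem and root genes, MYB87 had a body peak of 323 bp, and MYB36, which controls the Casparian strip, MYB37 and MYB84, which act in axillary meristems, and MYB93 of the lateral root had none (1 of 5 against 1.58). This list was not complete. MYB56 of the root stem cell niche, MYB68 of the root pericycle and MYB17 (LATE MERISTEM IDENTITY2) had body peaks but were not on it.

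No centre was counted at the 4 epidermal cell fate genes MYB0 (GLABRA 1, the trichome regulator), MYB5, MYB23 and MYB66 (WEREWOLF, of the root epidermis), against a sum of 1.33. None was counted at the 4 cuticle and suberin genes MYB9, MYB16, MYB106 and MYB107, against 1.47. Both lists may leave out genes of these functions, so these counts cover the listed genes only. MYB88, a gene of the stomatal lineage, had none, with the nearest centre at 1875 bp. Its partner FLP (MYB124), found through its synonym, had a flank peak of 411 bp centred in the neighbouring gene UTR3. RAX2 (MYB38), AS1 (MYB91) and TDF1 (MYB35), also outside the rule, had none.

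The 37 MYB genes in no subgroup held 14 of the 34 genes with a peak, against a like-length sum of 12.0, and 12 of these were in the body against 8.13. The ratios of these 37 genes were 1.17 with the flanks (0.741 to 1.66 from the Wilson interval) and 1.48 in the body (0.893 to 2.21). The 84 genes in subgroups held 20 against 29.4, and 13 in the body against 20.7. Their ratios were 0.680 (0.456 to 0.97) and 0.628 (0.377 to 1.003), and all these intervals cover counting error only. The difference between the 2 sets was not tested. The split follows the lists and not what is known of each gene. MYB17, MYB56, MYB68, MYB105 and MYB117, named below for their functions, each had a body peak and are among the 37. Nothing about genes of known against unknown function can be read from the split. The only MYB genes with 2 centres were among the 37 in no subgroup. MYB25 (AT2G39880) had peaks of 523 and 488 bp whose centres were 1098 bp apart (chromosome 2, 16647980 to 16648502 and 16649096 to 16649583). MYB56 (AT5G17800), known as BRAVO for its restraint of divisions in the root stem cell niche, had peaks of 446 and 405 bp whose centres were 704 bp apart (chromosome 5, 5877213 to 5877658 and 5877937 to 5878341). Genes of all kinds with at least 2 body centres numbered 1066 of 27444.

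The pair of genes that separate lateral organs both had body peaks. MYB117 (AT1G26780), or LATERAL ORGAN FUSION 1, had one of 647 bp (chromosome 1, 9271675 to 9272321), and MYB105 (AT1G69560), or LATERAL ORGAN FUSION 2, one of 384 bp (chromosome 1, 26158200 to 26158583). MYB68, a gene of the root pericycle, had one of 555 bp, and MYB48 one of 512 bp. MYB1, MYB305, MYB6, MYB82, MYB95 and MYB17 (LATE MERISTEM IDENTITY2) had body peaks of 298 to 405 bp. The flank peaks of this set were at MYB92, with 521 bp at 414 bp from the gene and centred in a non-coding RNA gene, and at MYB110. The MYB110 peak of 398 bp was centred only 17 bp beyond the edge and overlapped the gene by 182 bp.

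For 26 pairs of MYB genes known as close relatives, listed after the values were seen, 2 pairs had a peak at both genes, 10 at 1 gene and 14 at neither. The 2 were MYB105 with MYB117 and MYB64 with MYB119, and the peak of MYB119 lay in its neighbour. The 52 genes of these pairs had a peak in 14 cases (26.9%), near the 28.1% of all MYB genes. The pairs with a peak at 1 gene included MYB32 against MYB4, MYB3 against MYB7, MYB111 against MYB12, MYB85 against MYB42, MYB65 against MYB33 and MYB3R-5 against MYB3R-3. The number of pairs with a peak at both genes is a description, and nothing about relatedness can be read from it.

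At the limit of 1000 bp, the farthest counted centres were those of MYB72 (941 bp), MYB13 (911 bp), MYB98 (832 bp) and MYB108 (818 bp). The nearest not counted were those of MYB80 (1314 bp), MYB27 (1354 bp), MYB102 (1403 bp) and MYB96 (1511 bp). In all, 11 MYB genes had their nearest centre between 1000 and 2000 bp. For the 87 MYB genes without a peak the nearest centre lay 1314 to 27638 bp from the gene, with a median of 6698 bp, against 5094 bp for all protein-coding genes without one. The farthest was at MYB37. The 5 longest MYB genes without a peak were MYB21 (4644 bp), MYB88 (4240 bp), MYB4R1 (4229 bp), MYB12 (3272 bp) and MYB3R-3 (3044 bp). In the length bins of these genes, between 43.1% and 53.4% of all protein-coding genes had a centre in the body or flank.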

How the data were processed

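The deposited file lists peak start and end positions in bp, counted from 0, with no score, and intervals are printed here counted from 1. Per the submitters' processing notes, fastp 0.20.1, Bowtie2 2.4.2, SAMtools, Picard 2.25.6, deepTools 3.5.1 and the build TAIR10 were used. The peak caller, its threshold, the control and any pooling of replicates are not stated in the labels used here, and each could change which genes have a peak. Gene positions and symbols came from the RefSeq table of TAIR10.1. Peak centres inside protein-coding genes numbered 8493, and at most 8311 after shifts of 200 to 5000 bp, as a check of both frames.

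Centres were assigned to genes and compared with the share of genes with a peak in 20 length bins, using Python 3.11.15, pandas 2.3.3 and scipy 1.17.1. The counting was tested on simulated data. No p-value was computed, since there is 1 list without replicates. Windows of 500 kb were called gene-poor below 50% of the median gene number. Of 92 names in 16 functional lists, 84 matched a symbol, 7 a synonym and 1 neither. The members and lists were chosen with earlier results of these data known. Named are members with 2 or more centres, the 15 widest, all list members, the 5 longest without a peak and genes that hold a flank peak. MYB genes in no list that have a peak, and the 26 pairs, were named after their values were seen. One family planned for comparison is not reported here. No sequence is shown, since no genome or sequence table was used here.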

Additional observations from a re-analysis of the deposited data

How the results depend on the processing

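Of 40 alternatives to the main results, 36 stayed within the 95% interval of the main value or within 1.5 times a count. The 4 others changed the peaks or the flank by construction. For the subgroups only the total of genes with a peak was compared, so no single subgroup count was checked in this way. The intervals are wide, so staying within them is a weak check. With the wider 50% of the peaks, the share of MYB genes with a centre was 9.92% in the body and 14.9% with flanks, and 13 genes of the subgroups had a peak in place of 20. With a flank of 2000 bp the share was 37.2%. The ratio to genes of like length stayed below 1 throughout, between 0.760 and 0.886 in the body and between 0.744 and 0.985 with flanks, the highest when flank peaks in another gene were not counted. Adding the 10 genes named MYB by synonym gave 36 of 131 genes. Only 1 MYB gene lay in a gene-poor window. No paired analysis was possible because only 1 sample has a peak list. No replicate could be left out, and what the unknown depth limits was not assessed.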
